A study of Drosophila melanogaster with 2 samples.

Results

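The 10 genes described here encode core parts of the *Drosophila melanogaster* splicing machinery: Sf3b1, Sf3b3, Sf3b5, U2af38, U2af50, snRNP-U1-C, snRNP-U1-70K, SNRPG, Prp8 and snf. They were listed by name, and all 10 were found among the 13968 protein-coding genes annotated on the main chromosome arms. The study mapped Ada2b by chromatin immunoprecipitation and sequencing with an antibody to GFP, in embryos of the strain Ada2b-GFP aged 0 to 18 h that carried an Ada2b-eGFP fusion from an insertion. The labels give 2 biological replicates of this 1 group, each from whole embryos, so the values average over all cell types and ages in the collection. What promoter drives the fusion is not stated in the labels, the control library was not analysed here, and no condition was compared with another.

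The spliceosome removes introns from transcripts. The U1 particle recognises the 5' splice site, the dimer of U2af50 and U2af38 binds the 3' end of the intron, the SF3b part of the U2 particle holds the branch site, and Prp8, in the U5 particle, scaffolds the catalytic core. A ring of Sm proteins, to which SNRPG belongs, is common to the U1, U2, U4 and U5 particles. Ada2b is a subunit of SAGA, a coactivator complex with the histone acetyltransferase Gcn5. In flies Sf3b3 and Sf3b5 are subunits of SAGA as well as of SF3b. The data asked where Ada2b-eGFP lay on DNA, so a peak at one of these genes concerns the gene's promoter and not the protein that it encodes.

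A gene was counted as bound, or as having a promoter peak, where a summit lay no more than 500 bp from one of its transcription start sites (TSS). Signal is the peak strength given by the authors' peak caller, and positions are in bp from the start, negative for upstream. The conservative list, made on both replicates and thresholded on the irreproducible discovery rate (IDR), held 4796 peaks on the main arms. The thresholded list of replicate 1 held 3761 and that of replicate 2 held 3019. The ranked lists, which keep all candidates, held 91420 peaks for the series, 66290 for replicate 1 and 52829 for replicate 2. The number of reads per library is not given by these lists, so the precision of single values is unknown, and intervals below cover counting error only.

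Peaks lay at U2af50, snRNP-U1-C, SNRPG and Sf3b3, and at none of the 6 others. In the conservative list 4 of 10 genes (40.0%) had a promoter peak, against 17.5% of all protein-coding genes. In the other thresholded list of the series it was the same 4, against 17.9% of all genes. Replicate 1 alone gave 3 of 10, against 14.2% of all genes, and replicate 2 alone gave 4 of 10, against 13.2%. The gene missing from replicate 1 was Sf3b3. When a peak went to its single closest TSS, 2 of 10 were left, snRNP-U1-C and Sf3b3, against 12.8% of all genes, since SNRPG and U2af50 share their peaks with a gene whose start lies nearer. These genes are too few for a share to be read closely, and no test was made of it.

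The sequences around these peaks are shown to place the summits and the core promoter words next to the starts. They are given 5' to 3' on the strand of the splicing gene, on dm6, with the letters of the NCBI Release 6 genome, and capitals mark the words TATCGATA, ATCGAT, GGTCACACT, GTATNTTT and CANCNCTA on either strand. For snRNP-U1-C (chr3R:18983630-18983856, minus strand) the summit is base 76 and the start base 207. For Sf3b3 (chr3L:833365-833599, minus strand) the summit is base 76 and the start base 215. For SNRPG (chrX:16640684-16640834, minus strand) the summit is base 76 and the start lies outside the stretch. For U2af50 (chrX:16359019-16359172, minus strand) the start is base 134, and the stretch begins just short of the summit of the conservative list to leave out more of the neighbouring transcript.
snRNP-U1-C: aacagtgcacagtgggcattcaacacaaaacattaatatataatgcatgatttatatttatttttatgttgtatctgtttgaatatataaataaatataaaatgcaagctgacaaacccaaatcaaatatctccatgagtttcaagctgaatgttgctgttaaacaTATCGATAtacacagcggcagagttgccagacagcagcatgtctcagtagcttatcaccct
Sf3b3: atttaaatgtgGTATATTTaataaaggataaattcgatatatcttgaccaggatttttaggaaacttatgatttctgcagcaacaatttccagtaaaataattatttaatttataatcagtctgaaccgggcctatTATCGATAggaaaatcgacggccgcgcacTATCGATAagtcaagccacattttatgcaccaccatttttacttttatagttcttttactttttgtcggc
SNRPG: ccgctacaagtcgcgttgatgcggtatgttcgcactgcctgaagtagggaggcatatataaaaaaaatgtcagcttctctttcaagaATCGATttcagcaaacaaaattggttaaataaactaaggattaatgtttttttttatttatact
U2af50: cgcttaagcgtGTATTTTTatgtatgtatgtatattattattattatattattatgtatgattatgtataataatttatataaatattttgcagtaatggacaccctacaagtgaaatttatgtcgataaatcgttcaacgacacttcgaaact

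Among genes without a peak, snf, U2af38 and Sf3b5 are shown for comparison, each with its start at base 101. They are snf (chrX:5309142-5309262, plus strand), U2af38 (chr2L:294661-294781, minus strand) and Sf3b5 (chr3R:9015321-9015441, minus strand).
snf: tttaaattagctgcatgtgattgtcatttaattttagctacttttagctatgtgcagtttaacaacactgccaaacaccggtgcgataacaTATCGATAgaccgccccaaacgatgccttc
U2af38: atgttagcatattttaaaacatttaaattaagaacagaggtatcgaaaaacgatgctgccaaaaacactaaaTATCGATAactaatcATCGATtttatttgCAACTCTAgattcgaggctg
Sf3b5: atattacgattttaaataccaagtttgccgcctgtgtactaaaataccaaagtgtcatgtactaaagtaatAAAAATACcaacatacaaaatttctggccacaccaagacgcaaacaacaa

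U2af50 (FBgn0005411), the large subunit of U2AF, which binds the polypyrimidine tract, had the strongest peak of the 10 genes. The peak lay at chrX:16359093-16359272 with a signal of 302, rank 335 of 4796 in the conservative list. In the lists of single replicates its signal was 157 in replicate 1 and 143 in replicate 2. Ranked by signal over the genes bound in each replicate, it stood at percentile 84.4 in the first and 87.2 in the second (85.8 ± 1.98, SD, n = 2). Its summit lay at -150 bp from the nearest of its 4 starts, in an exon of PIG-Q, the neighbouring gene on the other strand.

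snRNP-U1-C (FBgn0261792) encodes a small protein of the U1 particle that helps it pair with the 5' splice site. Its peak, at chr3R:18983731-18983845, had a signal of 207 and rank 670. The signal was 115 in replicate 1 and 83.1 in replicate 2, at percentiles 74.3 and 68.9 among genes with a peak (71.6 ± 3.82, SD, n = 2). The summit lay at -131 bp, between genes. The single replicates placed it at -116 and -119 bp.

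SNRPG (FBgn0261791) encodes the SmG protein of the Sm ring. Its peak, at chrX:16640673-16640797, had a signal of 181 and rank 801. The signal was 88.7 in replicate 1 and 89.1 in replicate 2, at percentiles 63.4 and 71.7 among genes with a peak (67.5 ± 5.87, SD, n = 2). Its summit, at -340 bp, lay farthest from the start among the 4 peaks, and it was the one peak lost when the window was narrowed to 250 bp.

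Sf3b3 (FBgn0035162), the SF3b subunit that also belongs to SAGA, had the weakest of the 4 peaks. It lay at chr3L:833369-833678 with a signal of 65.3 and rank 3350 of 4796, with the summit at -139 bp, between genes. In replicate 2 the thresholded list held it with a signal of 36.5, which was percentile 17.4 of the genes bound there. In replicate 1 it was a candidate only, with a signal of 34.2. The −log10 IDR of that candidate was 1.31 and lay below the threshold of 2, against 2.50 in replicate 2. The peak was therefore found without replicate 1 and not found without replicate 2. A second candidate of the series list lay in an intron of Sf3b3 at 398 bp, with a signal of 42.4 and a −log10 IDR of 1.09.

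**Figure D1:**
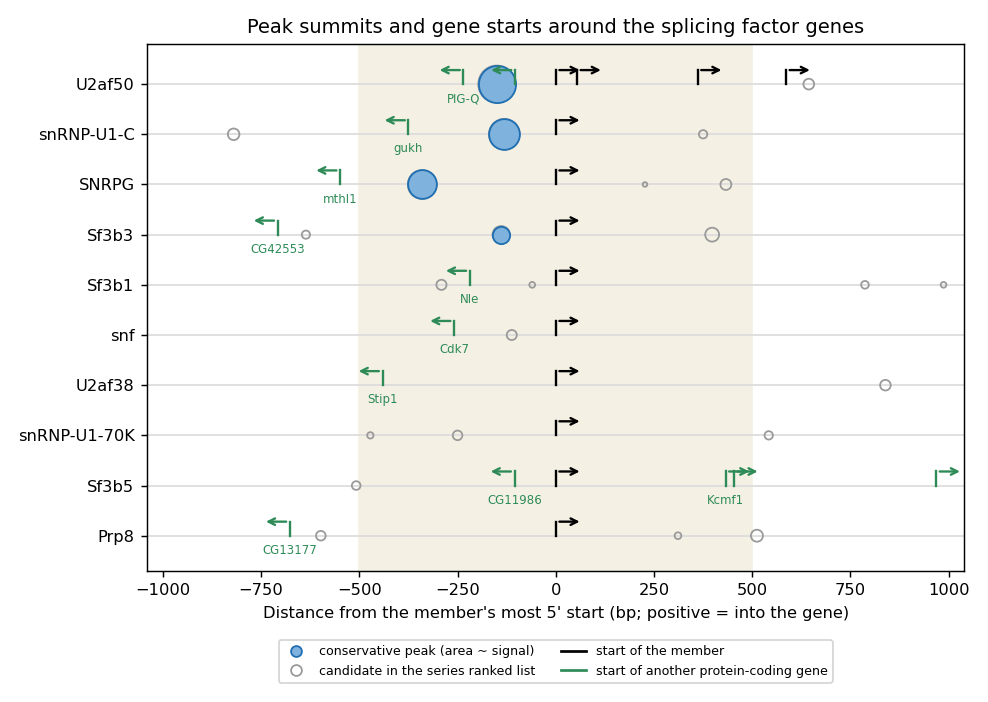
Summits (circles, area proportional to signal) and gene starts (arrows) by distance in bp from the most 5' start of each of the 10 genes, with the 500 bp window shaded. Filled circles are peaks of the conservative list and open circles are candidates of the series ranked list. The 4 filled circles lie between -340 and -131 bp, with the gukh and mthl1 starts beyond their summits and a PIG-Q start between the U2af50 start and its summit.

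In the conservative list U2af50, snRNP-U1-C and SNRPG had signals above the upper quartile of all genes with a promoter peak, SNRPG only just. Sf3b3 lay below the lower quartile. In the single replicates U2af50 alone stayed above the upper quartile. There snRNP-U1-C stood at percentiles 74.3 and 68.9 and SNRPG at 63.4 and 71.7. The medians were 194 over the 4 genes (lowest 65.3, highest 302) and 104 over all 2444 genes with a promoter peak (quartiles 70.3 and 179). By signal alone U2af50 stood at percentile 89.0, snRNP-U1-C at 78.9, SNRPG at 75.5 and Sf3b3 at 20.3 of those genes. The genes nearest to U2af50 in signal over the conservative list were CAP (302) above and Ucp4A (301) below. For snRNP-U1-C they were Tsp42Er (207) and Elp6 (206), for SNRPG CG1227 (182) and Msr-110 (181), and for Sf3b3 CG9164 (65.3) and Mmp2 (65.2). This likeness is in 1 number per gene and says nothing of a shared function.

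**Figure D2:**
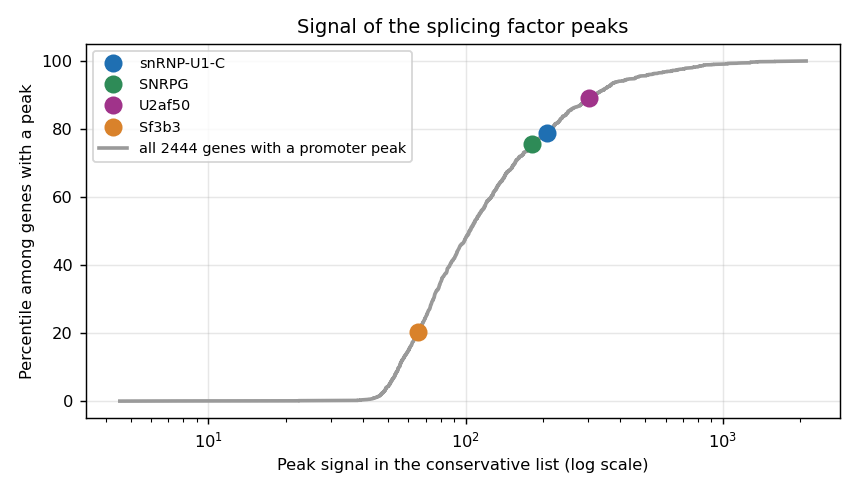
Percentile among the 2444 genes with a promoter peak (y axis) against peak signal in the conservative list (x axis, log scale), with the 4 bound splicing genes marked. Sf3b3, at a signal of 65.3, sits near the low end, and SNRPG, snRNP-U1-C and U2af50 sit between 181 and 302.

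The 6 genes without a thresholded peak had weak candidates or none within 500 bp of a start. The series ranked list held a candidate for 8 of the 10 genes, against 70.7% of all genes; these lists hold many weak candidates. The counts were 9 of 10 against 68.8% in the other ranked list, 9 of 10 against 61.9% in replicate 1 and 6 of 10 against 57.3% in replicate 2. For the unbound members with a candidate in the series list, 4 of 6, the strongest signals had a median of 21.2 and reached at most 22.6. The median over all genes with a candidate and no conservative promoter peak was 22.4 (quartiles 16.3 and 30.1).

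Sf3b1 (FBgn0031266), which contacts the branch site, had a strongest candidate of 10.6 in replicate 1, at -283 bp, and of 13.1 in replicate 2, at -60 bp. The former lay in a coding exon of Nle, the neighbouring gene on the other strand, and the latter between genes. The gene snf (FBgn0003449) encodes the fly protein that serves both the U1 and the U2 particle and takes part in sex determination. Its candidate had a signal of 11.5 in replicate 1 and 10.7 in replicate 2, and in the series list its −log10 IDR was 0.314. Both genes thus had a candidate in each replicate and a thresholded peak in neither.

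For U2af38 (FBgn0017457), the small subunit of U2AF that reads the end of the intron, replicate 1 held a candidate of 13.7 at -498 bp, just inside the window, and replicate 2 held none. That candidate lay in an exon of Stip1, the neighbouring gene on the other strand. snRNP-U1-70K (FBgn0016978), a U1 protein bound by SR proteins, had a strongest candidate of 11.4 in replicate 1 and none in replicate 2. Prp8 (FBgn0033688) had no candidate in either replicate's list, and the series list held one in its coding exon at 311 bp, rank 72165 of 91420, with a −log10 IDR of 0.183. Neither U2af38, snRNP-U1-70K nor Prp8 had a candidate in both replicates.

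To put all 10 genes on one scale, the strongest candidate of every protein-coding gene was ranked within each replicate, with genes lacking a candidate tied at the bottom. U2af50 stood at 97.7 in replicate 1 and 98.3 in replicate 2 (98.0 ± 0.380, SD, n = 2), above snRNP-U1-C at 96.3 and 95.8 (96.1 ± 0.309). SNRPG stood at 94.7 and 96.2 (95.5 ± 1.07), which overlaps snRNP-U1-C. Sf3b3 followed at 83.9 and 88.5 (86.2 ± 3.26), apart from the genes on both sides.

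Lower down the replicates spread more widely and neighbours in the order could not be told apart. Sf3b1 stood at 46.4 and 65.7 (56.1 ± 13.7, SD, n = 2) and snf at 48.9 and 58.3 (53.6 ± 6.61). U2af38 stood at 55.2 and 21.4 (38.3 ± 24.0), snRNP-U1-70K at 48.5 and 21.4 (34.9 ± 19.2) and Sf3b5 at 45.7 and 21.4 (33.6 ± 17.2). Prp8 was lowest at 19.0 and 21.4 (20.2 ± 1.64). The value 21.4 in replicate 2 and the value 19.0 in replicate 1 are those of a gene with no candidate.

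**Figure D3:**
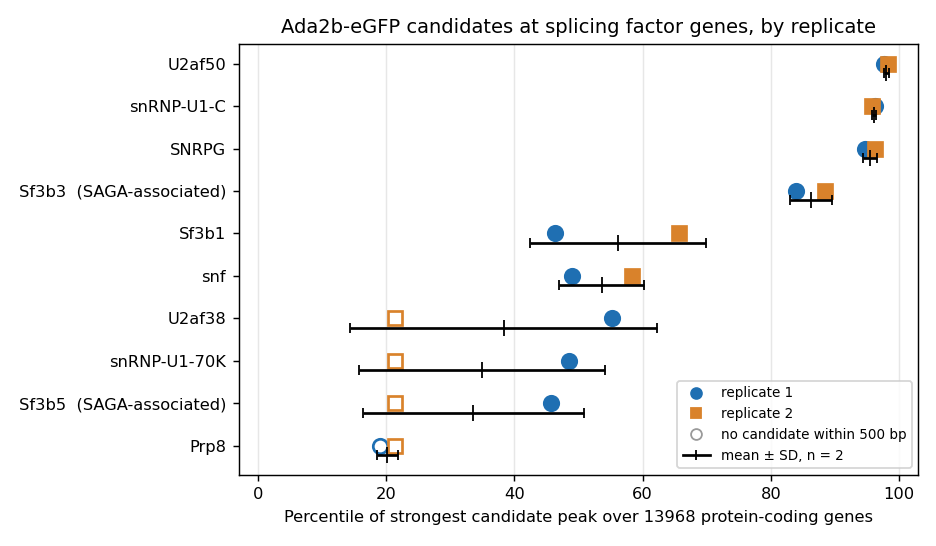
Percentile of the strongest candidate within 500 bp of a start over 13968 protein-coding genes (x axis) for each of the 10 genes (y axis), in replicate 1 (circles) and replicate 2 (squares), with the mean and SD of both (n = 2). Open symbols mark no candidate; the 4 bound genes lie between 83.9 and 98.3 in both replicates and the other 6 lie at or below 65.7.

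The SAGA-associated genes differed from each other. Sf3b3 was bound in the conservative list and Sf3b5 (FBgn0040534) was not, so 1 of this pair was bound, against 3 of the other 8. Within 500 bp Sf3b5 had 1 candidate, in replicate 1 alone, with a signal of 10.3 in its coding exon at 102 bp and a −log10 IDR of 0.0613. Just outside the window, at -508 bp, the series list held a candidate with a signal of 16.4. Over all genes the pair's mean percentiles were 86.2 ± 3.26 for Sf3b3 and 33.6 ± 17.2 for Sf3b5 (SD, n = 2). The other 8 ranged from 20.2 for Prp8 to 98.0 for U2af50. The Prp8 value is that of a gene with no candidate in either replicate, so no gene could lie below this range. With 2 genes against 8, no test was made. The nearest conservative peak to Sf3b5 had its summit 1083 bp downstream of the start, past the end of this short gene, in an exon of the next gene, Kcmf1, at -36 bp from one of its starts. That peak's signal, 64.3, was close to the 65.3 of the Sf3b3 peak.

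For the 5 other unbound genes the nearest conservative peak was farther off and lay nearest to the start of another gene. For U2af38 it lay at -3072 bp, near Pi3K21B, with a signal of 155. For Sf3b1 it lay at 6081 bp, near cold, with 98.8, and for snRNP-U1-70K at 7411 bp, near Coprox, with 56.0. For Prp8 it lay at -10532 bp, near Oda, and for snf at 13455 bp, near Rnp4F. In the whole 1000 bp on each side of their starts, these 5 genes and Sf3b5 had no summit of a conservative peak.

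Most of the splicing genes share their promoter region with a gene that runs the other way. Of the 10 genes, 9 (90.0%) had an upstream start of a protein-coding gene on the other strand within 1000 bp, against 36.2% of all protein-coding genes. Over the whole annotation, 30.2% of genes with such a divergent start had a promoter peak, against 10.3% of genes without one. Among the genes with a divergent start, 4 of 9 of the splicing genes (44.4%) had a peak, against those 30.2%. The layout was looked at after the positions of the peaks were known.

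The partners start close by in bound and unbound genes alike. For the 4 bound genes the starts were 104 bp (U2af50 and PIG-Q, a gene of GPI anchor synthesis), 375 bp (snRNP-U1-C and gukh), 549 bp (SNRPG and mthl1, a receptor gene) and 708 bp (Sf3b3 and CG42553) apart. For 5 unbound genes they were 105 bp (Sf3b5 and CG11986), 219 bp (Sf3b1 and Nle), 259 bp (snf and Cdk7, a kinase of the cell cycle and of TFIIH), 441 bp (U2af38 and Stip1, a chaperone partner) and 677 bp (Prp8 and CG13177) apart. The 2 sets of distances overlap over nearly their whole range. The remaining gene, snRNP-U1-70K, had a pseudogene start, CR43142, at -506 bp.

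The peaks of U2af50, SNRPG and snRNP-U1-C could not be assigned to one gene. The U2af50 summit lay 46 bp downstream of a PIG-Q start, nearer to it than the -150 bp from U2af50. The SNRPG summit lay at -209 bp from mthl1 and at -340 bp from SNRPG. The snRNP-U1-C summit lay at -131 bp from its own start and at -244 bp from that of gukh. The Sf3b3 peak had no other protein-coding start within 500 bp, although the start of snoRNA:Psi18S-1086, a small nucleolar RNA inside Sf3b3, lay in the window, with the summit at -315 bp from it. Of all genes with a promoter peak, 54.3% shared it with another protein-coding gene, against 3 of these 4.

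The summits lay upstream of the splicing genes' starts, as in most genes with a peak. The 4 positions, from -340 to -131 bp, compare with a median of -136 bp over all 2444 genes with a peak (quartiles -219 and -73.0 bp), of which 12.3% had a summit downstream of the nearest own start. U2af50, snRNP-U1-C and Sf3b3 fell inside those quartiles, and SNRPG fell outside.

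Core promoter words differed among the 10 genes and were found at bound and unbound genes. The word TATCGATA is the DRE, which the factor DREF binds at promoters of housekeeping genes. It occurred from 250 bp before to 50 bp after the start, on either strand, in 4 of 10 genes, against 9.36% of all 13968 promoters. Of those 4 genes snRNP-U1-C and Sf3b3 had a peak, and snf and U2af38 had none. Sf3b3 held the word at -78 and -49 bp, snRNP-U1-C at -40 bp, U2af38 at -28 bp and snf at -9 bp. Within 150 bp of the summit it occurred at 2 of the 4 peaks, against 9.19% of all 1959 promoter peaks, in each case between the summit and the start.

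The other words differed in how often they occurred. ATCGAT, the centre of the DRE and so counted again within it, occurred in 6 of 10 promoters against 23.3% of all. Motif 1 (GGTCACACT) occurred in snRNP-U1-70K, SNRPG and Sf3b1, against 6.04%. Motif 6 (GTATNTTT) occurred in 5 of 10 against 14.9%, Motif 7 (CANCNCTA) in 3 of 10 against 15.5%, the E-box CAGCTG in Sf3b1 alone against 17.6%, and GAGAG, the word of GAGA factor, in Prp8 alone against 29.7%. TATAAA, sought at any position in the window, occurred in all 10 against 45.8%. The Zelda word CAGGTAG occurred in none of the 10, against 1.64%, and that says only that these letters are not in these windows. A match is a description of the sequence, and occupancy of these words was not measured.

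A wider list of spliceosome genes was counted in the same way. Of 72 measured genes, which include the 10, 17 had a promoter peak (23.6%, 95% Clopper-Pearson interval 14.4 to 35.1), against 17.5% of all protein-coding genes. Without the 10 it was 13 of 62 (21.0%). Replicate 1 alone gave 12 of 72 (16.7%), against 14.2% of all genes. Replicate 2 alone gave 16 (22.2%), against 13.2%, and 10 genes were found in both. Some of the genes found in 1 replicate alone are not among the 17. All 17 had a divergent start within 1000 bp, as did 61 of the 72 genes, and 27.9% of those 61 had a peak, against 30.2% of all genes with such a start. None of the other 11 had a peak, against 10.3% of all genes without a divergent start. By the rule of 3, which divides 3 by the number of genes, a count of 0 there allows a share as high as 27.3%. When a peak went to its single closest start, 9 of the 72 were left (12.5%), against 12.8% of all genes, so the wider list then lay no higher than all genes.

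Among the roles, the U2 particle had the most bound genes. There 5 of 11 genes had a peak (45.5%, interval 16.7 to 76.6), and 3 of the 11 had one in both single replicates. The shares to set beside each role are 17.5% of all protein-coding genes and 30.2% of those with a divergent start, as 10 of these 11 had. Both shares lie inside the U2 interval. This role is put first for its count, so the interval describes counting error only and no test was made. Highest were Sf3b6 (125), Sf3a2 (94.6) and Phf5a (89.4), all parts of SF3a or SF3b, with Sf3b3 and noi (55.8) after them. Prp31 (114), a U4/U6 particle protein, and CG6686 (60.4) were bound among 13 genes of the U4/U6.U5 tri-snRNP. In the Prp19 complex and its partners 3 of 10 were bound, CG12343 (111), CG9667 (90.9) and Prp19 (54.6), the ubiquitin ligase that names it. Among SR and SR-like regulators 3 of 9 were bound, among them SC35 (109) and SF2 (92.9).

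Other roles had 1 bound gene or none. SNRPG was the 1 of 7 in the Sm ring, snRNP-U1-C the 1 of 3 in U1 and U2af50 the 1 of 3 in recognition of the 3' splice site. Prp18 (62.7), a factor of the second step, was the 1 of 9 among helicases and step factors. None of the 7 genes of the U6 LSm ring had a peak, against 17.5% of all protein-coding genes. By the rule of 3 a count of 0 there allows a share as high as 42.9%. The median signal of the 17 peaks was 92.9, from 54.6 to 302. U2af50, snRNP-U1-C and SNRPG had the highest signals of the 17. The peaks of noi and Prp19 were in neither thresholded list of a single replicate, and their weaker candidates are not given here. Of the 17 peaks, 16 were shared with another protein-coding gene, Sf3b3 being the exception.

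**Figure D4:**
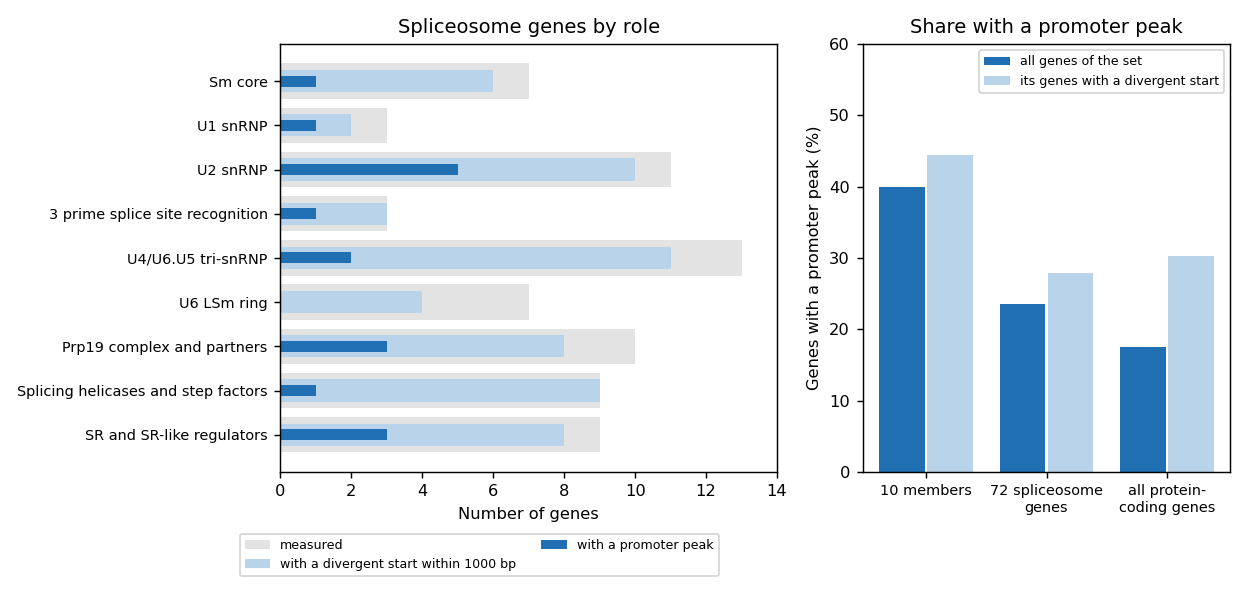
Left, number of spliceosome genes (x axis) by role: measured (grey), with a divergent start within 1000 bp (light blue) and with a conservative promoter peak (dark blue). Right, percent with a promoter peak (y axis, from 0) among all genes (dark) and genes with a divergent start (light) of the 10 listed genes (40.0 and 44.4), the 72 spliceosome genes (23.6 and 27.9) and all protein-coding genes (17.5 and 30.2).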

How the data were processed

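The labels name 2 biological replicates of 1 group, and chromatin was sonicated to a size range of 200 to 800 bp. Per the deposited notes, the authors used alignments to dm6 and a control file to make 8 lists of peaks, 4 on both replicates and 2 on each replicate alone. Neither aligner nor peak caller is named in these sources. The deposited score is the irreproducible discovery rate (IDR) rescaled by the authors, at least 830 in the thresholded lists, and the deposited signal is a score of the peak caller that is not normalized between lists. The ranked lists also carry a deposited −log10 value, that of the global IDR; the q values were not used. The ranked lists of the series also hold 4 signal columns that no header ties to a replicate, and these were not used.

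Genes and starts came from Ensembl release 115 and sequence from NCBI Release 6, whose arms hold all peaks used; 1 conservative peak lay off the 7 arms. Percentiles are mid-ranks within a list. Named genes were all 10 members, all genes with a start within 500 bp of a member's summit, the genes nearest in signal and up to 3 genes per role; the other divergent partners, the genes at the nearest peaks of unbound members, the pseudogene and noi were named after their values were seen. Of 73 symbols in the wider list 72 were matched, 3 through RefSeq. The members and lists were chosen with earlier results of these data known, so no test of them was made. Alternatives were other lists, single replicates, a median signal minimum, other windows, whole peaks, the most 5' TSS and the nearest TSS. The search for starts was tested on simulated data and found 200 of 200 planted summits at their gene. Tables were made with pandas 2.3.3 and numpy 2.4.6 in Python 3.11.15, intervals with scipy 1.17.1 and figures with matplotlib 3.10.9.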

Additional observations from a re-analysis of the deposited data

How the results depend on the processing

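The counts lay above the share of all genes in 10 of 11 settings for the wider list and in all 11 for the 10 genes. The main setting is among the 11. The other thresholded list and the ranked list past the IDR threshold repeated its counts, 4 of 10 and 17 of 72. The settings are thus not independent checks, and all of them were set against all genes. In the main setting 27.9% of the wider list's genes with a divergent start had a peak, against 30.2% of all such genes. For the 10 genes it was 4 of 9 (44.4%). The other settings were not compared in this way. The 10 genes gave 3 to 4 with a peak when 1 replicate was left out, and the wider list gave 12 to 16 of 72, against 13.2% to 14.2% of all genes. With the nearest TSS alone, 2 of the 10 and 9 of the 72 had a peak, against 12.8% of all genes. With peaks at or above the median signal it was 3 of the 10 and 11 of the 72, against 10.6%. Among all genes the share was 13.7% with a 250 bp window, 20.7% with a 1000 bp window, 18.8% with any base of the peak and 15.2% with the most 5' TSS. For the 3 genes with a peak in both replicates, other lists gave 12 percentiles and 12 summit positions, of which 4 percentiles and 6 positions moved by more than the spread between replicates, with no change of side of the start. For Sf3b3 no such spread existed. The cause was not tested. No paired analysis was possible because the labels give 1 group. Read depth was not analysed here, so what it limits among the weak candidates is unknown.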
